A study of Mus musculus with 36 samples.

Results

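RNA of 44 genes that encode soluble enzymes and activator proteins of the lysosome was followed across 7 groups of mouse kidney and tumor tissue. The members were taken by symbol from a list of lumenal lysosomal hydrolases, cathepsins and their activators. Each symbol matched 1 of the 53379 genes in the count tables, and all 44 passed the filter on low counts in all 8 comparisons. By role they were 12 glycosidases, 5 sulfatases, 6 lipid hydrolases, 3 activator or lipid transfer proteins, 10 cysteine proteases, 4 aspartic or serine proteases and 4 other enzymes.

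The tissue came from mice that carry the ASPSCR1-TFE3 fusion gene behind a stop cassette flanked by lox sites (ASPSCR1-TFE3 LSL/+), which a Cre recombinase removes. The 6 Sglt2-Cre; ASPSCR1-TFE3 LSL/+ mice, called fusion mice 1 to 6 here, gave 11 kidney tumor libraries (6 mice), 4 retro-orbital tumor libraries (mice 2, 3, 5 and 6), 3 brain tumor libraries (mice 1, 2 and 4) and 4 libraries of non-transformed kidney (mice 1, 3, 4 and 5). The 3 Sglt2-Cre control mice, without the fusion allele, gave 6 kidney libraries, and in a second model 5 Pax8-Cre; ASPSCR1-TFE3 LSL/+ fetuses with kidneys labelled dysmorphic were set against 3 control fetal kidneys. All fetal controls are labelled Pax8-Cre, while the series' description allows either Pax8-Cre or the uncombined fusion allele. The sample titles of dysmorphic fetuses 1 to 3 share a prefix with those of control fetuses 1 and 2. Dysmorphic fetuses 4 and 5 share another with control fetus 3. The labels do not say what a shared prefix stands for, so the fetuses may not be independent. All adult groups carry Sglt2-Cre, whose promoter is that of a proximal tubule glucose transporter, and the Pax8 promoter is active in the renal epithelial lineage from early development, so cells of other lineages do not carry the active fusion unless Cre was expressed in their ancestors. Ages are not given in the labels. From 4 Y-linked transcripts, fusion mice 1 and 5 were male, and the other fusion mice and all control mice were female. Dysmorphic fetuses 1 to 3 and control fetus 1 were male, and the other fetuses were female. Sex was thus unbalanced between fusion and control animals. Every sample was fixed in formalin and embedded in paraffin, and total RNA was sequenced without removal of ribosomal RNA.

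Lysosomal hydrolases are made in the endoplasmic reticulum, tagged with mannose 6-phosphate and carried to the lysosome, where they digest glycans, sulfated polysaccharides, lipids, nucleic acids and proteins at acid pH. Loss of a single enzyme leaves its substrate undigested, the basis of the lysosomal storage diseases. TFE3 belongs with TFEB, MITF and TFEC to the MiT/TFE transcription factors, which bind E-box sequences and are known as activators of many lysosomal genes, and fusions of TFE3 drive a subset of renal cell carcinomas.

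Library totals ranged from 80205573 to 121415057 counts, and 79.0% to 84.3% of the counts from 1 to 20 were even, so that the number of independent fragments is below the counts. Libraries of the same animal and group were summed, which made the animal the unit of every n. The 2 libraries of an animal differed beyond sampling noise, and the ratio between them had a median over members of 1.09 to 1.30, up to 3.16 for Ctsk in the kidney tumors of mouse 3. Levels are CPM, the count divided by the library total and brought to a fixed total, after TMM scaling, a correction for library composition.

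Some samples stood apart before any comparison was made. The summed level of 10 proximal tubule transcripts was 15080 to 16210 CPM in control kidneys and 15240 to 18430 CPM in non-transformed kidneys. In the kidney tumors it was 790 to 943 CPM in mice 2, 3 and 6 and 4170 CPM in mouse 1, but 10630 and 10710 CPM in mice 4 and 5. The retro-orbital tumor of mouse 5 held 1452 CPM of these transcripts, against 168 to 231 CPM in the other retro-orbital tumors, and the brain tumor of mouse 2 held 1259 CPM of 6 neuron and glia transcripts, against 126 and 315 CPM in mice 1 and 4. Among fetal kidneys, 10 intestine transcripts, a list drawn up after the values were seen, summed to 2483 and 3890 CPM in control fetuses 2 and 3 and 2303 CPM in dysmorphic fetus 5, against 7.42 to 58.6 CPM in the others. Control fetus 3 also had little Pax8 (2.03 CPM) and Pax2 (1.70 CPM), which define the renal lineage, whereas control fetus 1 had 37.3 and 73.5 CPM and control fetus 2 had 25.4 and 32.1 CPM. In bulk tissue, fewer cells of a type and less RNA per cell cannot be told apart.

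As a check of the fusion's activity, Gpnmb, a lysosomal glycoprotein gene known to respond to MiT/TFE factors, was at 1.54 to 2.46 CPM in control kidneys, 111 to 447 CPM in non-transformed kidneys and 2826 to 7324 CPM in kidney tumors. It was at 0.442 to 6.49 CPM in control fetal kidneys and 15.2 to 553 CPM in dysmorphic fetal kidneys. Of 5 response genes (Gpnmb, Flcn, Fnip2, Rragc and Rragd), 5 were called higher in kidney tumors than in control kidneys, but only Gpnmb in non-transformed kidneys and 0 in dysmorphic fetal kidneys, with a median log2 fold change of -0.06 and 0.16 in these last comparisons.

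As MiT/TFE factors bind E-boxes, the promoters of the members were read for the E-box CACGTG and for the longer GTCACGTG, which contains it, on both strands of the 250 bases before each start in the RefSeq promoter table (build GRCm38.p6). Of the 44 members, 39 had an entry, and Ctsb, Asah1, Aga, Galns and Ctsh had none. CACGTG was present in 11 of the 39 (28.2%) and in 6.86% of the 27025 genes in the table. GTCACGTG was present in 8 members (20.5%) and in 2.11% of all genes. Parts of 6 of the 8 promoters are shown on the gene's own strand, since they let the levels below be read beside the letters, with GTCACGTG or its reverse complement in capitals.
Gla: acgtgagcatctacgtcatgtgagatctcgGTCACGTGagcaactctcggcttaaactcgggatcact
Ctsd: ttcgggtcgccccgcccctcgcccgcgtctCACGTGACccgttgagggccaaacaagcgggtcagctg
Arsa: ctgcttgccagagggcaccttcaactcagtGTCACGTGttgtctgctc
Naglu: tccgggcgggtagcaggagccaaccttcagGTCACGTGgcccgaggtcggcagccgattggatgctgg
Glb1: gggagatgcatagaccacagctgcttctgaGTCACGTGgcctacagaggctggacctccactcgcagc
Lgmn: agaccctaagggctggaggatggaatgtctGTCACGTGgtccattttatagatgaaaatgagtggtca

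These stretches lie at chrX:134601164-134601231 (Gla, minus strand), chr7:142387888-142387955 (Ctsd, minus), chr15:89477425-89477472 (Arsa, minus), chr11:101069989-101070056 (Naglu, plus), chr9:114400998-114401065 (Glb1, plus) and chr12:102439106-102439173 (Lgmn, minus). By the GENCODE spans, the printed Ctsd and Lgmn stretches lie inside the gene and that of Naglu spans the gene's start. The RefSeq starts used for these genes are thus not the outermost GENCODE starts. Ctsd held a further copy upstream, and Ctsa, whose match also lies inside its gene, and Sgsh were the remaining members with GTCACGTG. Gla, Ctsd, Arsa and Naglu were among the members that rose in kidney tumors, while Glb1, Lgmn, Ctsa and Sgsh were not called there. Counted over the members with an entry, GTCACGTG was in 4 of 16 that rose, 0 of 3 that fell and 4 of 20 not called, and CACGTG was in 6 of 16, 1 of 3 (Ctsf) and 4 of 20. A match describes the letters of the window only.

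To ask how the enzymes differ between tumor and kidney, kidney tumors (6 mice) were compared to control kidneys (3 mice). The glycosidase Gla and the cathepsins Ctsl and Ctsd were between 7.28 and 35.4 times higher in tumors, and 15 further members rose by 1.71 to 4.87 times. Only Ids, Gm2a and Ctsf fell. In all, 18 of 44 members were called higher and 3 lower at an adjusted p under 0.05 (edgeR's quasi-likelihood test, Benjamini-Hochberg over all genes tested), against 12.5% of all 23578 genes higher and 6.51% lower. The count of members that fell was thus close to the background and that of members that rose was above it. The median log2 fold change was 0.76 over members and 0.05 over all genes. The members' summed level was 4168, 4947 and 4550 CPM in the 3 control kidneys and 10880 ± 3070 CPM (SD, n = 6) in kidney tumors, with a lowest value of 6951 and a highest of 14620 CPM.

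**Figure D1:**
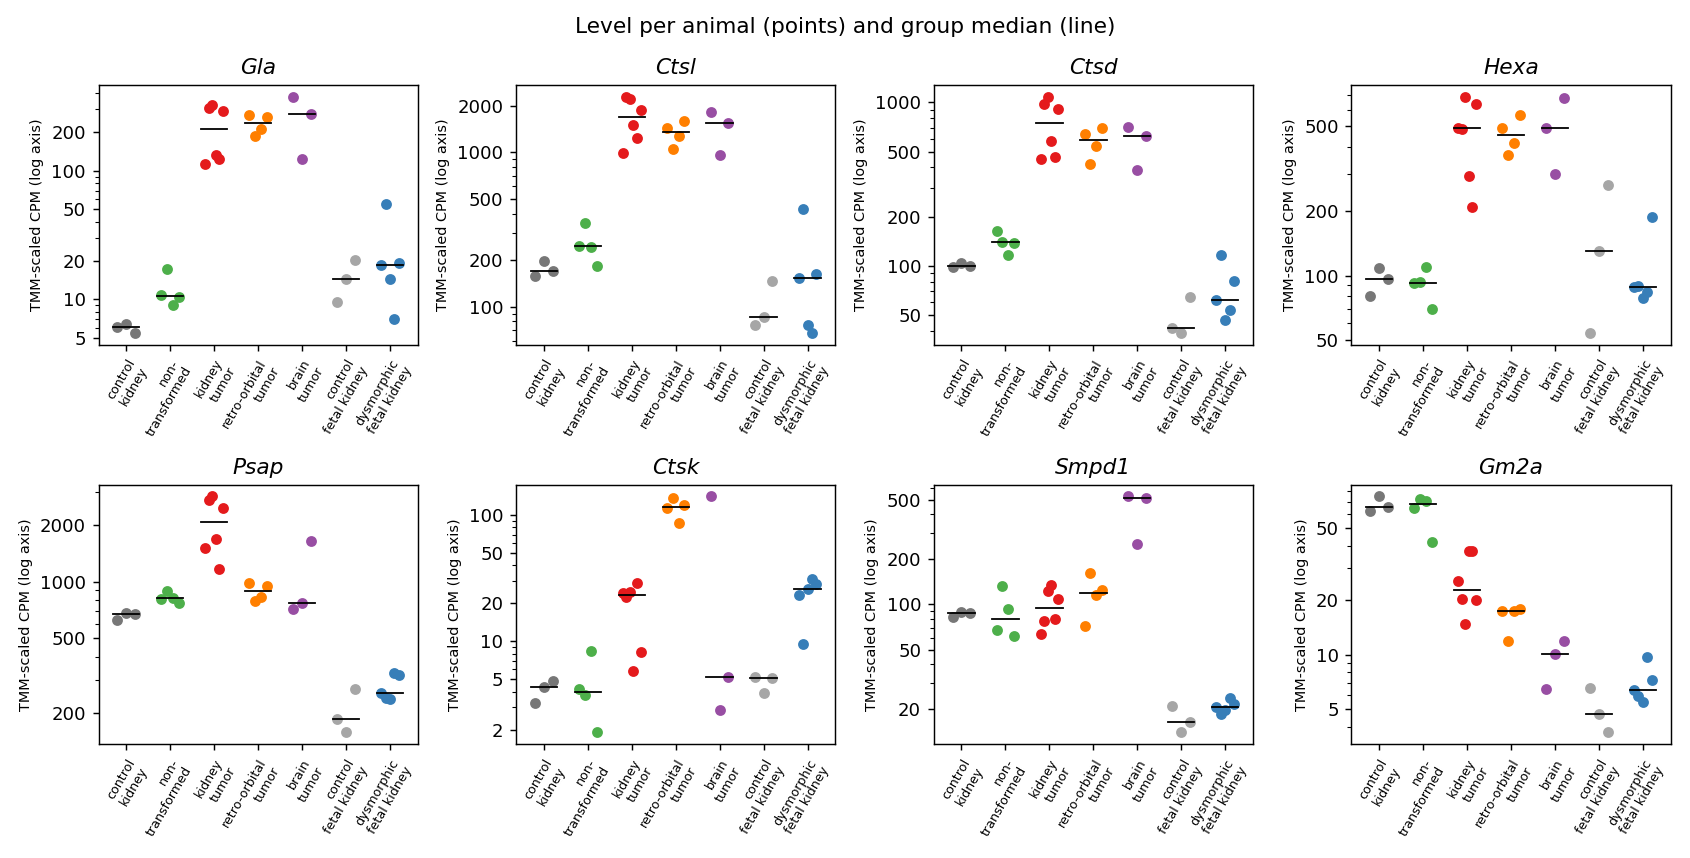
Level in CPM (log axis) of 8 members in each animal of the 7 groups, 1 point per animal, with a line at the group median. Gla, Ctsl, Ctsd and Hexa lay higher in every kidney, retro-orbital and brain tumor than in any adult control or non-transformed kidney. Ctsk was highest in the retro-orbital tumors and in 1 brain tumor, and Smpd1 was highest in the 3 brain tumors.

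Among glycosidases, 6 of 12 rose in kidney tumors and none fell. Gla (chromosome X, 134588149 to 134601125 in GRCm38), the alpha-galactosidase that removes terminal galactose from glycolipids, was at 6.12, 6.38 and 5.50 CPM in the control kidneys. In the tumors it was lowest in mouse 1 at 112 CPM, had a median of 213 CPM and reached 324 CPM in mouse 3, a log2 fold change of 5.15 ± 0.51 (SE, adjusted p = 0.000386). No other member rose as far, and the groups lay far apart. Hexa, the alpha subunit of beta-hexosaminidase, rose by 2.29 ± 0.39 on the log2 scale (adjusted p = 0.00609), from 79.99, 109 and 96.0 CPM to 209 to 689 CPM. The glycogen-degrading Gaa rose by 1.57, and Naglu, Idua and Gusb, which act on heparan sulfate and other glycosaminoglycans, rose by 1.14, 1.09 and 1.06. Neu1, the lysosomal sialidase, and Man2b1, an alpha-mannosidase, lay above the controls in all 6 tumors but were not called (adjusted p = 0.0562 and 0.0590). Glb1, the beta-galactosidase, was at 92.1 to 132 CPM in tumors and 128 to 141 CPM in controls, so the galactosidases Gla and Glb1 did not move alike.

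Of 5 sulfatases 1 rose and 1 fell, and of 6 lipid hydrolases 1 rose. Arsa, which desulfates sulfatide, rose 3.61-fold (log2 fold change 1.85, adjusted p = 0.00982) from a low level of 5.34, 5.73 and 4.91 CPM to 11.8 to 29.6 CPM, whereas Ids, the iduronate sulfatase, fell by 0.57 on the log2 scale (adjusted p = 0.0440). Ids was at 132, 96.9 and 97.2 CPM in controls, above all tumors, which had a lowest value of 59.0, a median of 75.6 and a highest of 87.3 CPM. Its call was kept in 6 alternative fits and lost in 10, among them the fits without any 1 control mouse. Arsb, Galns and Sgsh were not called. Asah1, the acid ceramidase, was the only lipid hydrolase called, 1.71-fold higher (adjusted p = 0.0425). The log2 fold changes of Smpd1, Lipa, Ppt1, Ppt2 and Pla2g15 lay between -0.65 and 0.96 and did not pass the test.

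The 3 activators split. Psap, the precursor of the saposins that present sphingolipids to their hydrolases, rose 3.06-fold (log2 fold change 1.61 ± 0.30, adjusted p = 0.00871), from 629, 686 and 678 CPM to between 1167 and 2836 CPM with a median of 2079 CPM. Npc2, which carries cholesterol inside the lysosome, rose 2.56-fold. Gm2a (chromosome 11, 55098115 to 55113029), the ganglioside activator that works with beta-hexosaminidase, fell: it was at 62.0, 74.6 and 65.4 CPM in control kidneys, and in tumors its lowest value was 14.7, its median 22.9 and its highest 37.4 CPM. All 6 tumors lay below all controls (log2 fold change -1.40 ± 0.28, adjusted p = 0.0116), although Hexa, whose product shares its substrate, rose in the same tumors.

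**Figure D2:**
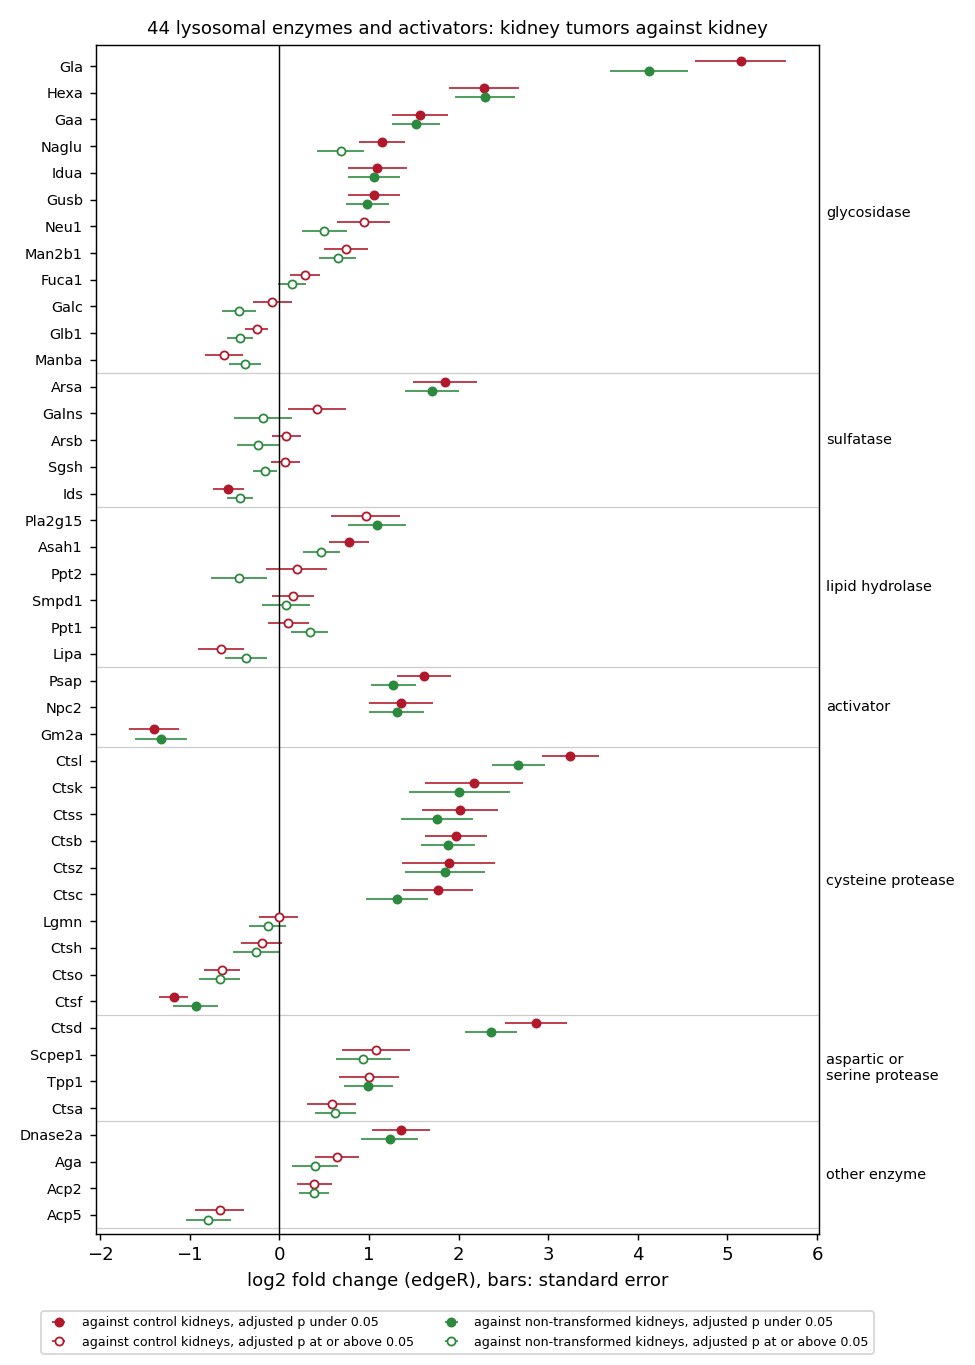
Log2 fold change with its SE of the 44 members, ordered by role, for kidney tumors against control kidneys (red) and against non-transformed kidneys (green); filled points had an adjusted p under 0.05. Gla stood at 5.15 and 4.12, ahead of Ctsl and Ctsd, and Gm2a and Ctsf were filled below zero in both colors.

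Of the 10 cysteine proteases, 6 rose and 1 fell. Ctsl (chromosome 13, 64359337 to 64370890), a broad endopeptidase, was at 158, 198 and 169 CPM in control kidneys and at 995 to 2290 CPM in tumors with a median of 1690 CPM, a log2 fold change of 3.25 ± 0.32 (adjusted p = 0.000353). Ctsb, an endopeptidase and carboxypeptidase, was at 305, 371 and 328 CPM in controls and between 726 and 1958 CPM in tumors, a log2 fold change of 1.97 ± 0.34 (adjusted p = 0.00649). Every tumor exceeded every control for both.

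Ctsk (chromosome 3, 95499256 to 95509362), a collagen-degrading cathepsin best known from osteoclasts, was low in kidney, at 3.27, 4.39 and 4.90 CPM. In tumors it was at 24.2, 22.4, 24.6, 5.86, 29.2 and 8.28 CPM in mice 1 to 6, so mice 4 and 6 lay only just above the controls (log2 fold change 2.17 ± 0.54, adjusted p = 0.0252). Ctss, which trims antigen-presenting complexes, Ctsz, a carboxypeptidase, and Ctsc, a dipeptidyl peptidase that activates granule proteases, rose by 2.02, 1.89 and 1.77 on the log2 scale. Ctss was highest in the tumors of mouse 1 (498 CPM), which also had the highest summed level of macrophage transcripts. Ctsf fell by 1.18 ± 0.16 (adjusted p = 0.00184), from 65.9, 81.4 and 78.2 CPM to 27.3 to 44.3 CPM with a median of 32.7 CPM. Ctsh, Ctso and the asparaginyl endopeptidase Lgmn were not called, and Lgmn was among the more abundant members in both groups, at 266 to 562 CPM in tumors and 368 to 485 CPM in controls.

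Ctsd (chromosome 7, 142375911 to 142388038), the main aspartic protease of the lysosome, was at 99.1, 104 and 100 CPM in control kidneys and between 452 and 1082 CPM in tumors with a median of 749 CPM (log2 fold change 2.86 ± 0.35, adjusted p = 0.00109). The serine carboxypeptidase Ctsa, which protects Glb1 and Neu1 from digestion, had a log2 fold change of 0.59, and the peptidases Scpep1 and Tpp1 had 1.08 and 1.004, and none of these passed edgeR's test. Of the other enzymes, Dnase2a, the acid endonuclease, rose 2.57-fold (adjusted p = 0.0218), while the acid phosphatases Acp2 and Acp5 and the amidase Aga were not called. DESeq2 called Scpep1, Tpp1, Neu1, Man2b1 and Ctso as well, 26 members in all, against 26.2% of all genes. Ctsd shares 34.4% of its exon bases with Gm49369 on the same strand, and Ctsl shares 26.8% with the antisense gene Gm47123. How the counting treated strand and shared bases is not given in the sources used here.

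Per kilobase of exon, the order of the members also differed between tissues. The length is that of all annotated exons of a gene joined, 6489 bases for Ctsl and 2351 for Ctsd. The order between genes depends on this choice. Psap led in all 7 groups, with a median of 247 CPM per kilobase in control kidneys and 758 in kidney tumors. In kidney tumors Ctsd (318.5), Ctsl (260), Hexa (246) and Ctsb (207) followed. In control kidneys Ctsd was rank 9 (42.6), Ctsl rank 17 (26.0) and Gla rank 41 of 44 (1.87), and Gla was rank 10 in kidney tumors (65.2).

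**Figure D3:**
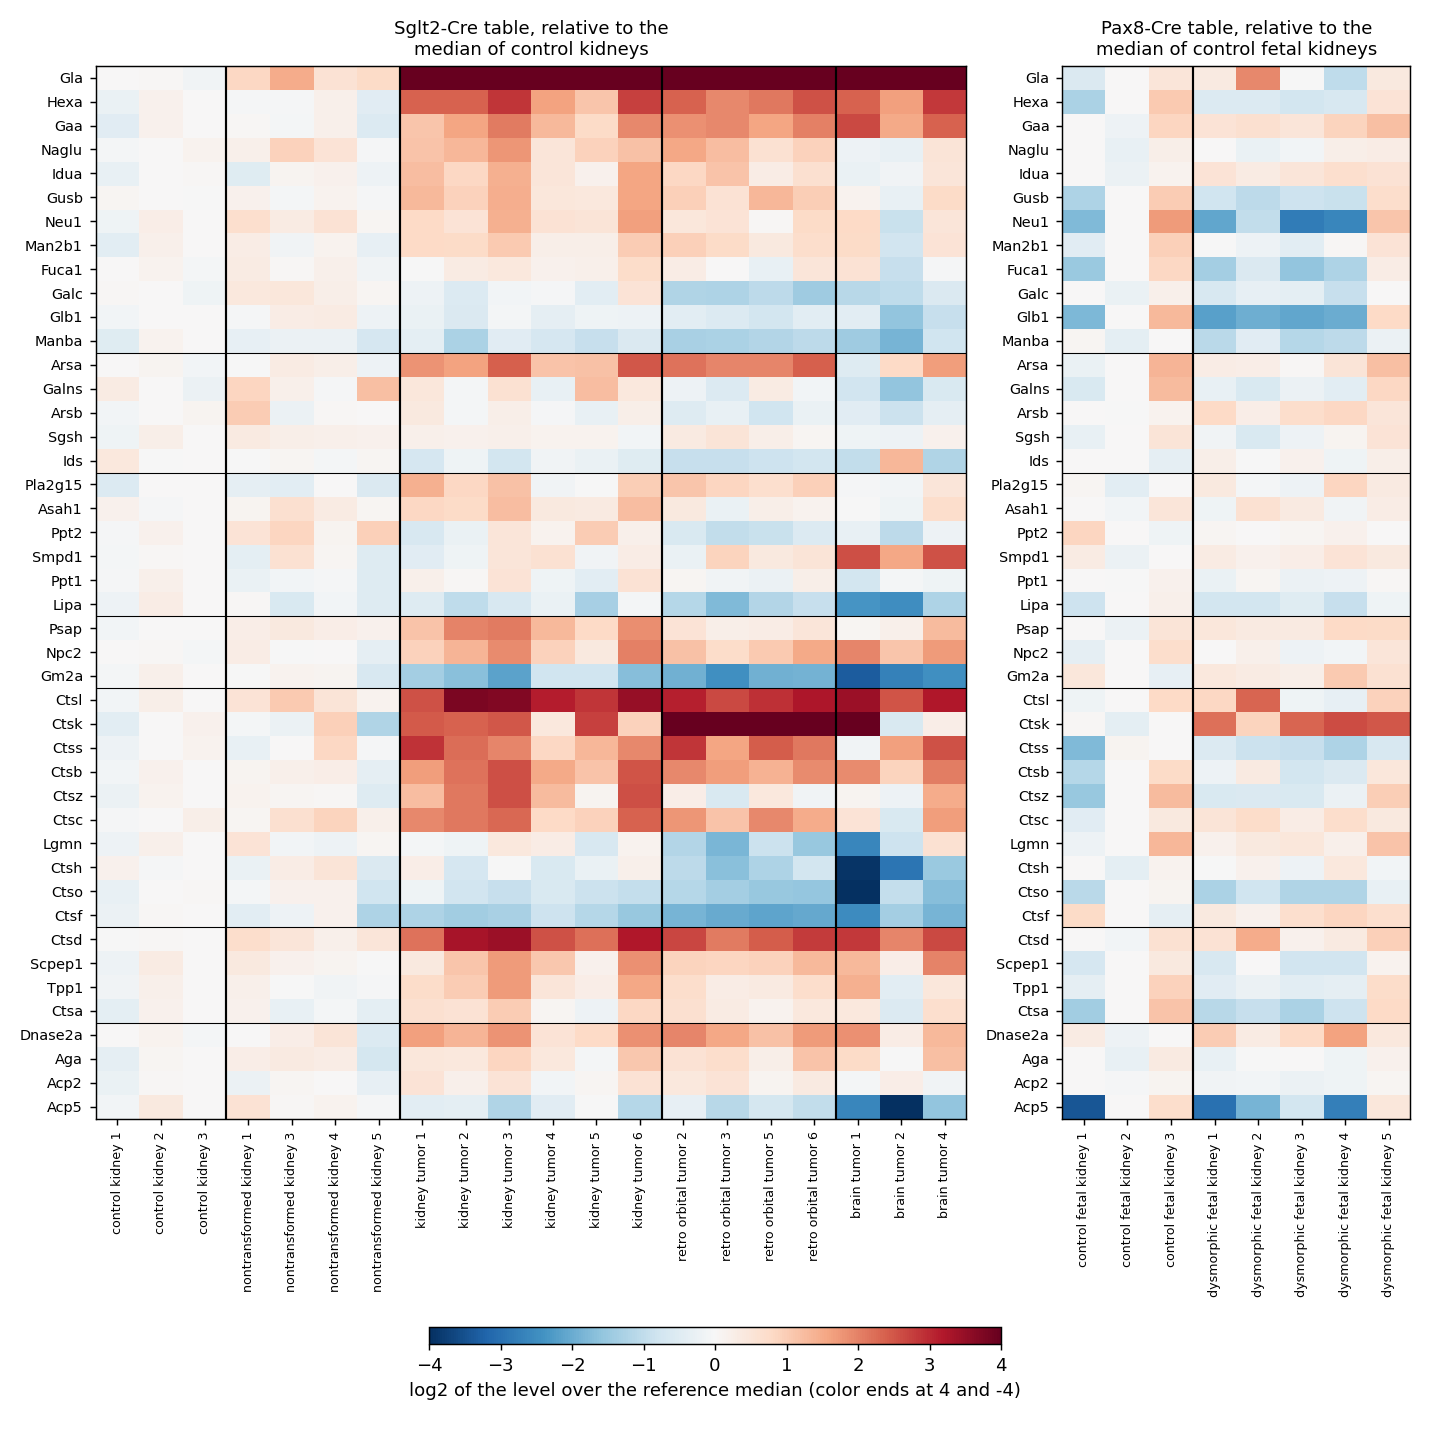
Log2 level of each member (rows, by role) in each animal (columns, by group), relative to the median of control kidneys for adult samples and of control fetal kidneys for fetal samples, with the color scale ending at -4 and 4. Gla was high in every tumor of the 3 sites, Gm2a and Ctsf were low there, and Glb1, Neu1 and Ctsa were high in control fetus 3 and dysmorphic fetus 5.

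With the kidney tumors of mice 4 and 5 left out, a choice made after the values were seen, 26 members were called higher and 4 lower, in a fit that called 34.1% of all 23029 genes in either direction. There Gla, Ctsl and Ctsd had log2 fold changes of 5.44, 3.40 and 3.09. The count fell to 10, 9 and 7 without control mouse 1, 2 or 3, where 8.55%, 4.78% and 4.96% of all genes were called, and the 7 that passed without control mouse 3 were Gla, Ctsl, Ctsd, Hexa, Ctsb, Psap and Ctsf.

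Macrophages are rich in lysosomes, and their transcripts moved with these results. The sum of 14 macrophage markers was 284 to 337 CPM in control kidneys and 448 to 1653 CPM in kidney tumors, 9 of the 14 were called higher, and none of the defining markers was at 0. Adgre1 was at 13.7 to 19.2 CPM in controls and 19.6 to 105 CPM in tumors, Csf1r at 58.1 to 90.6 and 40.95 to 133 CPM, and Ptprc at 41.7 to 62.3 and 38.7 to 152 CPM. The other defining markers were higher in every tumor. C1qa was at 8.07 to 10.7 CPM in controls and 16.8 to 57.1 CPM in tumors, C1qb at 13.3 to 18.2 and 25.2 to 89.6 CPM, and C1qc at 9.75 to 11.7 and 15.05 to 61.7 CPM. The macrophage sum was lowest in mice 4 and 5 (448 and 495 CPM), where Gla was at 132 and 124 CPM and Ctsl at 1503 and 1228 CPM. Of 7 fibroblast markers, 4 rose. The part of these cells in the members' rise was not tested. Among the members that fell, Gm2a and Ctsf were highest in the tumors of mice 4 and 5, which held the most proximal tubule transcripts. Gm2a was at 37.3 and 37.4 CPM there and Ctsf at 44.3 and 35.6 CPM, while Ids was highest in mice 4 and 2 (87.3 and 86.4 CPM). The part of tubule cells in these falls was not tested.

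Other genes of the pathway, from separate lists, were read in the same test. Of 20 further lysosomal hydrolases, 9 rose and 1 fell. Among them, the hyaluronidase Hyal1 rose by 3.64 on the log2 scale, Epdr1 by 3.23, the dipeptidyl peptidase Dpp7 by 2.79 and Creg1 by 2.43, and Smpdl3a fell by 1.39. Of 11 genes for mannose 6-phosphate tagging and sorting, 5 rose: Igf2r, the large mannose 6-phosphate receptor, by 2.53, the adaptor Gga2 by 1.59, Gnptab, which encodes the tagging enzyme, by 1.48, the receptor Scarb2 by 1.35 and Sort1, a sorting receptor, by 1.013. Of 6 cathepsin inhibitors, 5 rose, among them the cystatin Cstb from a mean of 51.8 to 553 CPM and the serpin Serpina3n from 1.43 to 263 CPM. Of the MiT/TFE factors themselves, Mitf and Tfec fell, with log2 fold changes of -1.05 and -1.495, and Tfe3 and Tfeb were not called.

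The same 6 kidney tumors were next compared to the non-transformed kidneys of 4 of these mice, which share the fusion genotype. Again 18 members were higher and 2 lower, against 12.1% and 5.02% of all 21930 genes, with a median log2 fold change of 0.56 over members and -0.02 over all genes. This comparison shares its tumors with the one above, so the values stand side by side and are not independent. Gla was at 10.9, 17.1, 9.10 and 10.48 CPM in the non-transformed kidneys of mice 1, 3, 4 and 5, below all tumors (log2 fold change 4.12 ± 0.43, adjusted p = 0.000300). Ctsl was at 247.6, 348, 243 and 184 CPM there and Ctsd at 164, 140, 116 and 139 CPM, with log2 fold changes of 2.66 ± 0.30 and 2.36 ± 0.29. Ctsb was at 355, 376, 394 and 257 CPM (log2 fold change 1.89 ± 0.30).

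Naglu, Ids and Asah1, called against control kidneys, were not called against non-transformed kidneys (adjusted p = 0.0959, 0.0568 and 0.139), and Tpp1 and Pla2g15 were called here (log2 fold changes of 0.99 and 1.09). Ctsk was at 4.17, 3.74, 8.45 and 1.90 CPM in non-transformed kidneys and overlapped the tumors (log2 fold change 2.01 ± 0.56, adjusted p = 0.0357). Gm2a, at 64.8, 72.2, 70.9 and 41.6 CPM, was above all tumors (log2 fold change -1.32 ± 0.29), whereas Ctsf, at 58.3, 68.2, 87.5 and 33.1 CPM, was called lower but overlapped because mouse 5 was low (log2 fold change -0.93 ± 0.25).

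Since these tissues come from the same animals, the animal was also fitted as a block. The count then fell from 20 to 7: Gla (log2 fold change 3.70, adjusted p = 0.00579), Ctsl, Ctsd, Hexa, Ctsb, Arsa and Gaa, where 4.12% of all 20575 genes were called. Without the block it was 8 without mouse 1 or without mouse 3, against 6.4% and 5.59% of all genes, and 29 without the kidney tumors of mice 4 and 5, where 33.4% of all 21321 genes were called. Macrophage markers moved here too, with 10 of 14 higher and sums of 234 to 478 CPM in non-transformed kidneys.

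To ask whether the enzymes already differ in kidney that carries the fusion genotype without tumor, non-transformed kidneys (4 mice) were compared to control kidneys (3 mice). No member was called by edgeR's quasi-likelihood test, where 0.00952% of 21019 genes were called, 7 members had an unadjusted p under 0.05, against 11.7% of all genes, and DESeq2 called 1, Gla, against 2.43%. The median log2 fold change was 0.10 over members and 0.03 over all genes. Gla lay above the controls in all 4 mice, at 9.10 to 17.1 against 5.50 to 6.38 CPM, and so did Ctsd, Galc and Psap, with log2 fold changes of 0.99 ± 0.23 (adjusted p = 0.201), 0.48 ± 0.12, 0.35 ± 0.12 and 0.32 ± 0.10, and 4.48% of all genes were likewise above without overlap. The non-transformed kidney of mouse 3 had the highest Gla (17.1 CPM), Ctsl (348 CPM) and Gpnmb (447 CPM) of its group. Whether these samples held tumor cells was not tested. Ctsb (log2 fold change 0.06 ± 0.16) and Ctsk (0.14 ± 0.45) overlapped.

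Retro-orbital tumors (mice 2, 3, 5 and 6) were compared to kidney tumors to ask how the enzymes differ by tumor site. Ctsk was 5.85-fold higher, 11 members were lower, and the members that rose most between kidney and kidney tumor did not pass the test. Against 8.26% of 22136 genes higher and 9.45% lower, 1 of 44 members was higher and 11 were lower, with a median log2 fold change of -0.28 over members and -0.09 over all genes. Ctsk was at 114, 137, 85.9 and 120 CPM in the retro-orbital tumors of mice 2, 3, 5 and 6, all above the highest kidney tumor at 29.2 CPM (log2 fold change 2.55 ± 0.42, adjusted p = 0.00415). It was rank 7 of 44 per kilobase there and rank 28 in kidney tumors. The sum of 8 osteoclast markers was 173 to 235 CPM in retro-orbital tumors and 68.0 to 94.8 CPM in kidney tumors, with 1 marker called higher, Itgb3, and 1 lower, Calcr. The defining osteoclast markers Calcr, Ocstamp, Dcstamp and Oscar were at 0 to 0.231 CPM in these tumors, while Itgb3, an integrin on that list also used by other cells, was at 128 to 205 CPM, against 26.2 to 57.4 CPM in kidney tumors. Mmp9, a matrix metalloproteinase on that list, was at 1.66 to 5.09 CPM in retro-orbital tumors and 0.0599 to 1.97 CPM in kidney tumors. Fibroblast markers summed to 2202 to 4438 CPM, against 1176 to 2590 CPM in kidney tumors, and 2 of 7 were called higher. The part of these cells in the Ctsk level was not tested.

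The members that fell at the retro-orbital site included cysteine proteases, 1 of the 3 activators (Psap), sulfatases and lipid hydrolases. Ctsz was at 74.2, 40.5, 82.7 and 55.8 CPM and had the lowest log2 fold change, -1.86 ± 0.47 (adjusted p = 0.0223), yet it overlapped the kidney tumor of mouse 5 (66.7 CPM). Lgmn was at 185, 117, 229 and 146 CPM, below all kidney tumors (log2 fold change -1.36 ± 0.24, adjusted p = 0.00540). Psap was at 989, 789, 829 and 950 CPM, also below all kidney tumors (-1.24 ± 0.26, adjusted p = 0.00985) and close to the 771 to 891 CPM of non-transformed kidneys. Galc, which cleaves galactosylceramide, Ctsh, Ctsf, Ctso and Ids were likewise below every kidney tumor, with log2 fold changes of -1.16, -1.01, -0.81, -0.72 and -0.48, and Ppt2, Asah1 and Arsb were called with overlap. Of all genes, 7.82% lay below every kidney tumor.

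Gla was at 270, 186, 210 and 260 CPM in retro-orbital tumors (log2 fold change 0.08 ± 0.34, adjusted p = 0.899), Ctsd at 638, 418, 537 and 696 CPM (-0.41 ± 0.28) and Ctsb at 1257, 1047, 867 and 1219 CPM (-0.31 ± 0.28). These overlapped the kidney tumors, and each lay above every control kidney. Renal lineage markers summed to 0.774 to 11.7 CPM at this site, against 109 to 192 CPM in kidney tumors. With the animal as a block, 5 members were called: Ctsk (log2 fold change 2.57, adjusted p = 0.0262), Psap (-1.28, 0.0299), Arsb, Ctsh and Galc, against 13.1% of all 20462 genes. Without the block, leaving out mouse 3 gave a count of 4, without mouse 6 it was 5 and without mouse 2 or 5 it was 6, with Ctsk called each time and 7.24% to 15.3% of all genes called. With the kidney tumors of mice 4 and 5 and the retro-orbital tumor of mouse 5 left out, it was 9, against 15.7% of all genes.

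**Figure D4:**
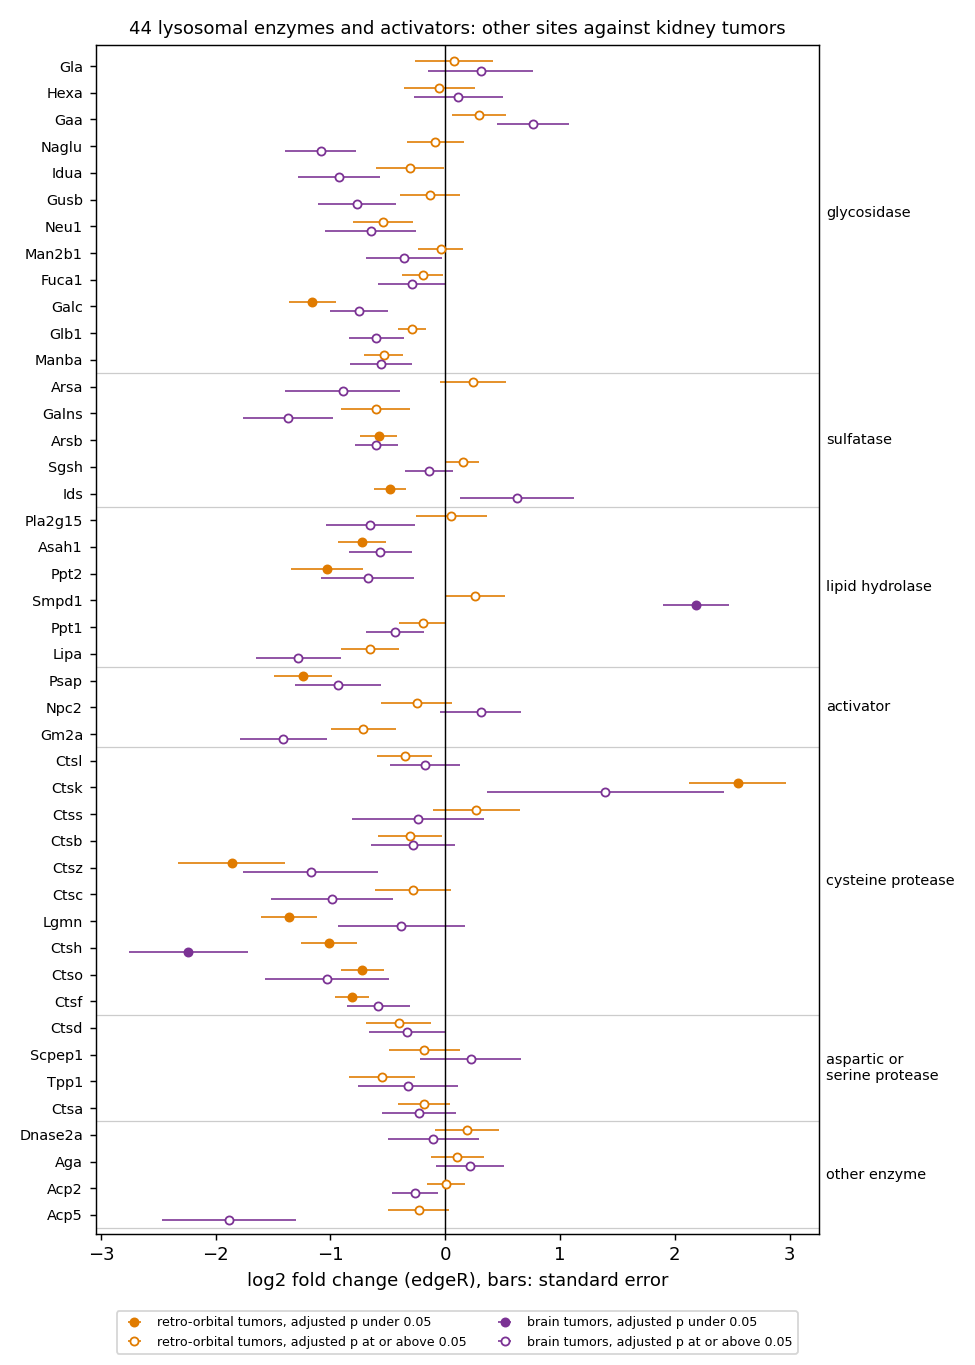
Log2 fold change with its SE of the 44 members in retro-orbital tumors (orange) and brain tumors (purple) against the same kidney tumors; filled points had an adjusted p under 0.05. Ctsk was filled at 2.55 for the retro-orbital site and Smpd1 at 2.18 for the brain, while the retro-orbital site had 11 filled points below zero and the brain had 1, Ctsh.

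In brain tumors (mice 1, 2 and 4) Smpd1, the acid sphingomyelinase that turns sphingomyelin into ceramide, was higher than in kidney tumors, and Ctsh was lower. Smpd1 (chromosome 7, 105554360 to 105558389) was at 525, 254 and 513 CPM in the brain tumors of mice 1, 2 and 4, above all kidney tumors, whose lowest value was 63.5, median 94.0 and highest 134 CPM (log2 fold change 2.18 ± 0.29, adjusted p = 0.00669). It was at 82.8 to 89.5 CPM in control kidneys and 72.05 to 163 CPM in retro-orbital tumors. Ctsh, an aminopeptidase, was at 10.7, 21.3 and 58.3 CPM, below all kidney tumors at 101 to 193 CPM (log2 fold change -2.24 ± 0.52, adjusted p = 0.0346). These 2 were the only members called, 1 higher and 1 lower, against 4.54% and 4.2% of 23391 genes, so the counts were close to the background. With these 2 included, 14 of 44 members had an unadjusted p under 0.05, where 28.5% of all genes did. DESeq2 called 9 members in all, against 20% of all genes.

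The median log2 fold change in brain tumors was -0.50 over members and 0.03 over all genes. Gm2a, Acp5, Galns, Galc, Arsb and Ctso lay below all kidney tumors without being called (adjusted p = 0.0505, 0.0735, 0.0601, 0.0885, 0.0753 and 0.248), and 9% of all genes lay below without overlap. Gla was at 377.1, 124 and 276 CPM (log2 fold change 0.31 ± 0.46), Ctsd at 710, 388 and 625 CPM (-0.33 ± 0.34) and Ctsb at 1213, 602 and 1368 CPM (-0.28 ± 0.37), all overlapping the kidney tumors.

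Ctsk was uneven in the brain, at 140 CPM in mouse 1 and 2.85 and 5.22 CPM in mice 2 and 4, the lowest Ctsk values of any tumor. In the same 3 tumors, 5 pigment cell transcripts summed to 0.581, 512 and 869 CPM, most of it from Dct (0.241, 490.5 and 860 CPM), while Tyr, another gene of that list, was at 0 to 0.0339 CPM. Ids was at 49.5, 242 and 42.0 CPM, highest in the tumor of mouse 2 with the neuron and glia transcripts, and the part of brain tissue in that level was not tested. Smpd1 was at 254 CPM in that tumor, its lowest value in the 3 brain tumors. The part of brain tissue in the Smpd1 levels was not tested either. With the animal as a block 0 of 21827 genes were called, members included (Smpd1 log2 fold change 2.23, adjusted p = 0.267). Smpd1 was called without each mouse in turn, whereas Ctsh was lost without mouse 1, 2, 3, 5 or 6, and also without the kidney tumors of mice 4 and 5 together (adjusted p = 0.0620).

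Set directly against retro-orbital tumors, brain tumors differed in no member called by edgeR, where 1.73% of 21037 genes were called. An unadjusted p under 0.05 was found for 9 of 44 members and for 21.5% of all genes, and DESeq2 called 3, Smpd1, Naglu and Pla2g15, against 13.2% of all genes. Smpd1 was above all retro-orbital tumors (log2 fold change 1.84 ± 0.35, adjusted p = 0.0521), and Naglu, Arsa, Galns, Pla2g15, Gm2a and Acp5 were below all of them, with log2 fold changes of -1.09, -1.23, -0.85, -0.80, -0.78 and -1.74. Of all genes, 8.49% were above and 10.4% below without overlap. The median log2 fold change was -0.16 over members and 0.04 over all genes. The difference in Ctsk was -1.23 ± 1.22 (adjusted p = 0.621), and those of Gla, Ctsd and Ctsb were 0.14, -0.01 and -0.07 with SEs of 0.35, 0.26 and 0.30.

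In the fetal model, dysmorphic kidneys (5 fetuses) were compared to control fetal kidneys (3). The libraries also differed in make-up: the top 10 genes held 8.2% to 14.8% of the counts in dysmorphic kidneys and 5.2% to 5.7% in controls. Ctsk was the only member called, and 1 of 44 members higher is close to the 2.4% of 22690 genes called higher. Ctsk was at 23.3, 9.52, 25.8, 31.0 and 28.6 CPM in dysmorphic fetuses 1 to 5, above the 5.26, 3.89 and 5.10 CPM of the control fetuses (log2 fold change 2.29 ± 0.38, adjusted p = 0.0350). Arsb and Idua were also above all controls without being called by edgeR (log2 fold changes of 0.56 and 0.53, adjusted p = 0.0911 and 0.113), and DESeq2 called all 3, against 10.9% of all genes. Of all genes, 9.82% lay above the controls without overlap. The median log2 fold change was -0.13 over members and -0.04 over all genes, and it was 0.31 and 0.04 without the 3 fetuses with intestine transcripts, so the sign of both medians depended on those fetuses. Fibroblast markers summed to 8695 to 19750 CPM in dysmorphic kidneys and 4616 to 6187 CPM in controls, skeletal muscle markers to 2472 to 5708 and 1054 to 1294 CPM, and renal lineage markers to 0.549 to 38.3 and 19.6 to 210 CPM. Ctsk was lowest in dysmorphic fetus 2, which also had the lowest fibroblast and the highest renal lineage sum of its group. Macrophage markers summed to 357 to 642 CPM in dysmorphic kidneys and 217 to 262 CPM in controls, with 2 of 14 called higher, and osteoclast markers to 40.5 to 75.5 and 34.9 to 38.9 CPM, with 0 of 8 called and a median log2 fold change of 1.16. The part of these cells in the Ctsk difference was not tested.

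Gla was at 18.6, 55.3, 14.3, 7.08 and 19.1 CPM in dysmorphic kidneys and 9.61, 14.5 and 20.2 CPM in controls, Ctsd at 61.6, 117, 46.9, 53.7 and 80.8 against 41.7, 39.0 and 64.2 CPM, and Ctsb at 184, 273, 127, 143 and 289 against 96.3, 213 and 360 CPM. The groups overlapped for all 3 (log2 fold changes of 0.61 ± 0.62, 0.55 ± 0.34 and -0.17 ± 0.45). Dysmorphic fetus 2 had the highest Gla, Ctsl (428 CPM) and Ctsd of the fetal kidneys together with the highest Gpnmb (553 CPM).

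**Figure D5:**
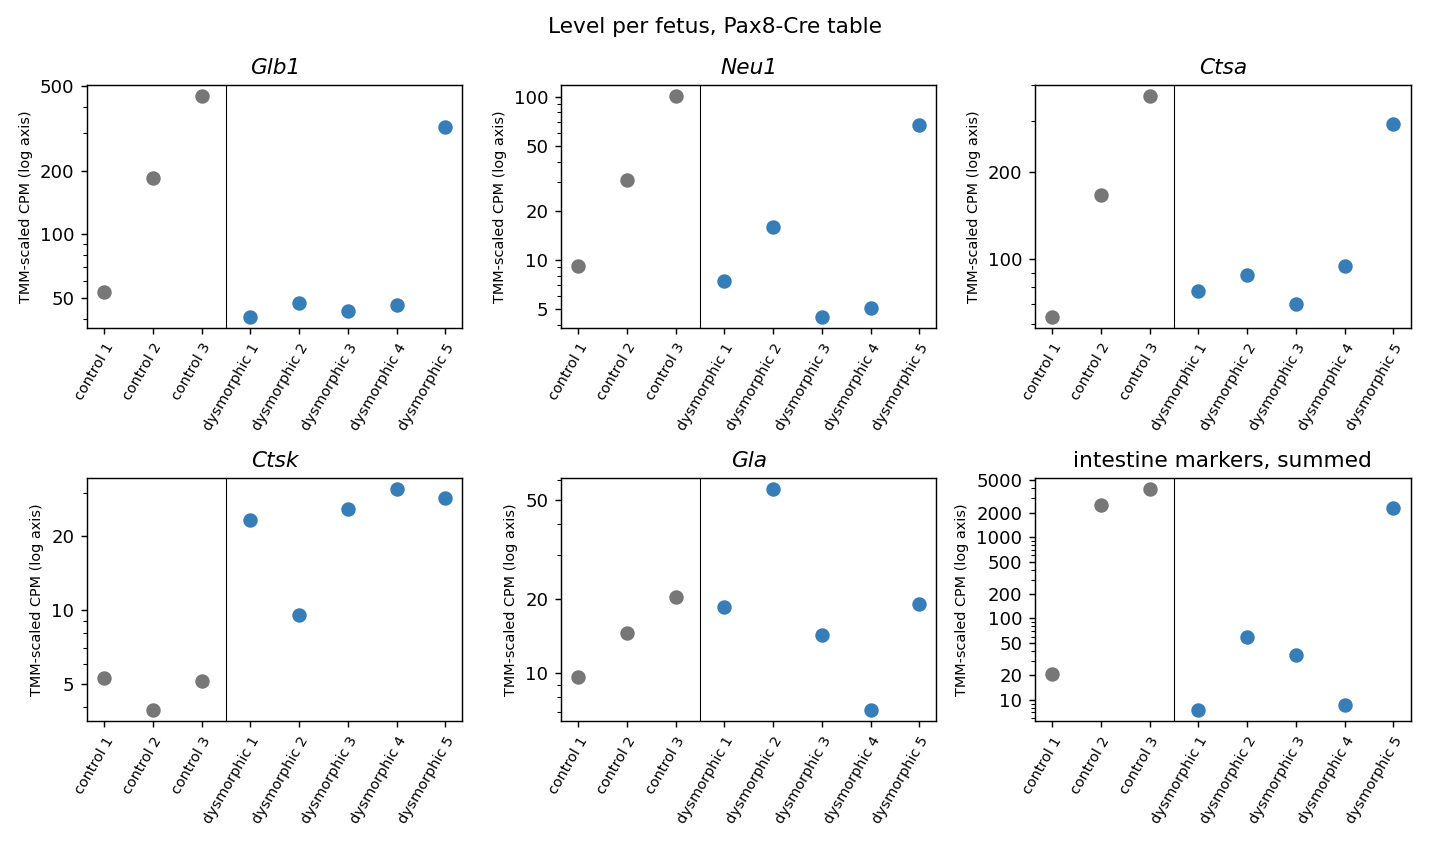
Levels in CPM (log axis) of Glb1, Neu1, Ctsa, Ctsk and Gla and the summed intestine transcripts in each of the 8 fetal kidneys, 1 point per fetus. Glb1 was at 185 and 450 CPM in control fetuses 2 and 3 and 320 CPM in dysmorphic fetus 5, the 3 fetuses with high intestine transcripts, and at 40.8 to 53.7 CPM in the other 5, while Ctsk separated the groups.

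Several hydrolases were high in the 3 fetuses with intestine transcripts, whose part in these levels was not tested. Glb1 was at 53.7, 185 and 450 CPM in control fetuses 1 to 3 and at 40.8, 47.5, 43.8, 46.4 and 320 CPM in dysmorphic fetuses 1 to 5. Neu1, at 9.20, 31.0 and 101 CPM in controls, reached 67.2 CPM in dysmorphic fetus 5 against 4.47 to 15.8 CPM in its group, and Ctsa, at 63.2, 167 and 367 CPM, reached 294 CPM there against 70.0 to 94.9 CPM. Without those 3 fetuses, which leaves 1 control whose spread is assumed to be that of the dysmorphic kidneys, no member and no gene was called and Ctsk had a log2 fold change of 2.11 (adjusted p = 0.302). Without dysmorphic fetus 1, 3 or 4 or any 1 control, 0 genes were called, and Ctsk had log2 fold changes of 2.16 to 2.36. With sex as a covariate 0.022% of all genes were called, and Ctsk, at 2.33, was not among them (adjusted p = 0.0560).

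The effect of the fusion was then tested for a difference between the models, as kidney tumor against control kidney minus dysmorphic against control fetal kidney. These contrasts differ in age, in the promoter of Cre, in tissue state and in the deposited table, which cannot be told apart. The difference was positive for 8 members, Gla, Hexa, Naglu, Arsa, Ctsb, Ctsl, Ctss and Ctsd, and negative for 2, Gm2a and Ctsf, against 6.87% and 2.07% of 24444 genes. Gm2a and Ctsf fell in the Sglt2-Cre model (log2 fold changes of -1.40 and -1.18) and had log2 fold changes of 0.46 and 0.34 in the fetal model, where they were not called. The median difference was 0.88 over members and 0.16 over all genes. Gla differed by 4.59 ± 0.81 on the log2 scale (adjusted p = 0.00261), Ctsl by 2.53 ± 0.71 (0.0376), Ctsd by 2.36 ± 0.49 (0.00841), Ctsb by 2.19 ± 0.59 (0.0324) and Gm2a by -1.85 ± 0.38 (0.00794). The call of Ctsb was lost in 11 alternative fits and kept in 11. Ctsk rose in both models and differed by -0.09 ± 0.64 (adjusted p = 0.953), which does not show that the effects were alike. Gla, Ctsd, Gm2a and Ctsf were called without each animal in turn, and no member was called without the 3 fetuses with intestine transcripts, where 2.16% of all genes were called and Gla differed by 3.82 (adjusted p = 0.0688).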

How the data were processed

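Per the labels, RNA of formalin-fixed tissue was sequenced with stranded total RNA libraries, and the submitters' processing notes name FastQC, MultiQC, Bowtie2, STAR 2.5.2a and the builds GRCm38 and mm10. The authors deposited raw counts per gene in 2 tables, 1 per Cre model. The counter and annotation are not given in the sources used here, and GENCODE M21 supplied symbols, coordinates and exon lengths. Library totals were 80205573 to 121415057 counts, and the p-values measure the spread between animals.

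Libraries of an animal were summed. Each of 8 comparisons was fitted on its groups over all genes with edgeR 4.0.16 (R 4.3.3), using TMM factors, filterByExpr and the quasi-likelihood F-test, with a call at a Benjamini-Hochberg adjusted p under 0.05. The SE was obtained as the absolute log2 fold change over the root of F. Members and lists were chosen with earlier results of these data known. Any member could be named. Values per animal are given for the called members with the 3 largest rises and falls and for Ctsk, Gla, Ctsd and Ctsb. Alternatives were RLE factors, DESeq2 1.42.0, no filter, halved counts, a joint fit, sex as a covariate, an animal block and leaving out each animal, plus 6 fits added after the data were seen. Pairing is by animal. The correlation over genes of deviations from the group mean, between kidney tumor and the other tissue of a mouse, was -0.076 to 0.143 for non-transformed kidney, 0.242 to 0.413 for retro-orbital and -0.195 to 0.030 for brain tumors. Nothing says that the libraries of an animal came from separate lesions. The code was tested on simulated data.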

Additional observations from a re-analysis of the deposited data

Results flagged for a closer look

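Of 176 sets of member values, each a member in a group of 4 to 6 animals, 18 had a lowest or highest animal far from the others by Dixon's criterion, and chance flags about 1 in 20 such sets. Of these, 9 were high values of dysmorphic fetus 5, the dysmorphic kidney with intestine transcripts: Glb1 at 320 CPM, Gusb at 102, Hexa at 188.5, Neu1 at 67.2, Galns at 16.4, Ctsz at 103, Lgmn at 144.5, Ctsa at 294 and Tpp1 at 60.3 CPM. Dysmorphic fetus 2 stood high for Gla (55.3 CPM, others at most 19.1) and Ctsl (428 CPM, others at most 162.5). Among kidney tumors, mouse 6 was high for Galc (152 CPM) and low for Sgsh (7.67 CPM), and mouse 1 was high for Ctso (23.0 CPM). Non-transformed kidney was high for Arsb in mouse 1 (251 CPM) and low for Aga in mouse 5 (29.5 CPM), and retro-orbital tumors were low for Gm2a in mouse 3 (11.9 CPM) and high for Scpep1 in mouse 6 (169 CPM).

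The fusion effect differed between the Sglt2-Cre and Pax8-Cre models by edgeR's interaction test for 10 of 44 members, against 8.94% of all genes. On the log2 scale the difference was 4.59 for Gla, 2.87 for Hexa, 2.58 for Ctss, 2.53 for Ctsl, 2.36 for Ctsd, 2.19 for Ctsb, 1.95 for Arsa, 1.14 for Naglu, -1.50 for Ctsf and -1.85 for Gm2a.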

How the results depend on the processing

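For the called members with values per animal, 466 alternative values were computed, of which 389 kept the call, 77 lost it and none changed sign. The uncalled Gla difference between retro-orbital and kidney tumors was -0.08 with the animal as a block. With the animal as a replicate block, which pairs the tissues of a mouse, 7 members were called between kidney tumors and non-transformed kidneys, 5 between retro-orbital and kidney tumors and 0 between brain and kidney tumors. A block by title prefix kept 1 call in the fetal comparison (Ctsk), where 1.8% of all genes were called. No paired analysis was possible for brain against retro-orbital tumors because they share 1 mouse, nor against control animals. DESeq2 called 1 member between non-transformed and control kidneys, 9 between brain and kidney tumors, 3 between brain and retro-orbital tumors and 3 in the fetal comparison. All groups in 1 fit gave 8 for retro-orbital against kidney tumors (18.3% of all genes), 13 for brain against kidney tumors (25.1%) and 3 for brain against retro-orbital tumors (13.1%). In the last of these, RLE factors gave 1 (1.85%) and halved counts gave 1 (2.64%). Without the filter, 7 members were called for retro-orbital against kidney tumors, where 9.33% of all genes were called. Sex as a covariate gave 27 members for kidney tumors against control kidneys (25.9% of all genes), 0 for non-transformed against control kidneys (0.0238%) and 0 in the fetal comparison (0.022%). Of the fits added after the data were seen, leaving out the kidney tumors of mice 4 and 5 gave 1 for brain against kidney tumors (5.8% of all genes). Leaving out the 3 fetuses with intestine transcripts left 1 control fetus. The median log2 value over members was then 0.31 in the fetal comparison and 0.558 for the models. Leaving out each animal gave 7 to 27 calls against control kidneys (4.78% to 25.1% of all genes), 8 to 21 against non-transformed kidneys (5.59% to 17%), 0 to 0 between these kidneys, 4 to 10 for retro-orbital (7.24% to 19.5%) and 1 to 4 for brain tumors (1.26% to 6.36%) against kidney tumors, 0 to 1 between these sites (0% to 5.97%), 0 to 2 in the fetal comparison (0% to 5.58%) and 4 to 16 for the models (3.79% to 11.7%), the last from 4 without control mouse 1 or control fetus 3 to 16 without dysmorphic fetus 5.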
